A study of Bos taurus with 48 samples.

Results

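Subcutaneous fat of 24 Norwegian Red heifers in month 7 of gestation was compared between 2 pedigrees of one dairy herd, 12 heifers of the pedigree bred for high milk yield (HMY) and 12 of the pedigree bred for a low occurrence of clinical mastitis (LCM). These 24 libraries are all the gestation samples of a series of 48. The other 24 libraries are from the same heifers at 12 months of age, and they are used here only beside the gestation values. From 3 months of age until pregnancy was established the heifers had been fed 1 of 4 diets, low or high in protein (LP, HP) and low or high in energy (LE, HE), and thereafter all of them had free access to the same low-energy feed. Each diet held 3 HMY and 3 LCM heifers, that is 6 of each pedigree per energy level. The comparison asks whether fat tissue of the pedigrees differed in gestation, when the feed was shared, and the former diet entered the model as a covariate. The labels give neither sires nor kinship within a pedigree, so breeding goal and family cannot be told apart, and p-values measure the spread between heifers of 1 herd. Breeding took place at a set body weight, so age at the gestation sampling could differ between the energy levels. The heifers came from a larger trial and were picked for RNA quality and for balance over diets and pedigrees.

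White adipose tissue of ruminants is both the main store of triacylglycerol and the main site of fatty acid synthesis, which in cattle starts largely from acetate. Around calving the tissue moves from storing lipid towards releasing it, and the released fatty acids feed milk fat and milk energy. It also secretes hormones such as leptin and holds stromal, vascular and immune cells beside the adipocytes.

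Reads per gene were counted, and values are given as CPM, counts scaled to a common library total, normalized with the trimmed mean of M-values (TMM). Counts on genes were 22430093 to 61027456 per HMY library and 22816414 to 51269804 per LCM library. The tissue could be checked against few markers, because most gene identifiers carried no symbol. Of 8 adipocyte markers, CIDEC, a lipid droplet protein, and LEP, the gene of the hormone leptin, could be matched. CIDEC was at 894 to 2186 CPM (median 1542) in HMY and 986 to 1882 CPM (median 1636) in LCM. LEP was at 110 to 1199 CPM in HMY and 242 to 709 CPM in LCM. Some libraries stood apart from the rest. The HMY heifers 19, 17 and 11 carried skeletal muscle transcripts, heifers 2 (HMY) and 13 (LCM) lay far from the others on the first principal component, and the LCM heifers 7 and 23 had the largest shares of reads without a unique alignment, 39.97% and 33.1%. In bulk tissue, fewer cells of a type and less RNA per cell cannot be told apart.

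Principal components of log2 CPM over the 13403 tested genes were first used to ask whether the pedigrees differed as a whole. The first component held 25.1% of the variance, and its mean was -1.23 ± 24.8 (SD, n = 12) in HMY and 1.23 ± 21.9 in LCM (exact permutation test within diets, two-sided p = 0.812). The second component held 14.5% of the variance, with means of -5.89 ± 14 in HMY and 5.89 ± 19 in LCM (exact permutation p = 0.0141, adjusted over both components 0.0281). Its scores overlapped widely between the pedigrees. By former energy level, in HE heifers the median score was 2.73 in HMY and 16.9 in LCM, and in LE heifers it was -13.8 in HMY and -8.82 in LCM. Among genes with a symbol, the end of the component where HMY lay was led by BDH1, a ketone body enzyme, C19orf80, which encodes an insulin-responsive hormone of the angiopoietin-like family, SOST, GSTT3, FASN, the fatty acid synthase, and MID1IP1, an activator of acetyl-CoA carboxylase. At the end where LCM lay, the leading genes with a symbol were PDK4, KLF11 and CPT1A. PDK4 is the kinase that shuts off pyruvate dehydrogenase, and CPT1A admits fatty acids to mitochondria. By absolute loading over all tested genes these ranked 28, 73 and 139, against 1 and 2 for BDH1 and C19orf80. Most symbols belong to genes the study called between energy levels, so the named genes are no even draw from either end. With the 500 most variable genes the difference on this component was no longer past the threshold (exact permutation p = 0.134).

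Gene by gene, 23 of 13403 genes (0.172%) were differentially expressed genes (DEG) between the pedigrees by the edgeR likelihood ratio test (LRT) with a Benjamini-Hochberg false discovery rate (FDR) under 0.1. Of these, 5 (0.0373% of tested genes) were higher in HMY and 18 (0.134%) were higher in LCM. MYH2, 1 of the 5, could only come out higher in HMY, because it passed the filter on low values through 3 HMY libraries alone. The count depended on single heifers, ranging from 5 (without HMY heifer 10 or LCM heifer 24) to 73 (without HMY heifer 18) when 1 heifer was left out, and a fit of all 48 samples gave 0 DEG (918 genes at an unadjusted p under 0.05). The quasi-likelihood F test of edgeR, which also carries the error of the dispersion estimate, called 0 genes (lowest FDR 0.226), while 1259 genes had an unadjusted p under 0.05 in it. DESeq2 called 67 genes (0.5%), 24 higher in HMY and 43 higher in LCM, and these included all 23. At an unadjusted p under 0.05 the LRT had 1146 genes (8.55%), 577 higher in HMY and 569 higher in LCM. The median log2 fold change (HMY minus LCM) of all genes was 0.00, and the 95% interval of a gene reached 0.23 to either side at the median. This interval is unadjusted and is no detection limit. At that spread, with 12 heifers per pedigree, a larger difference was needed to pass the FDR over 13403 genes.

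**Figure D1:**
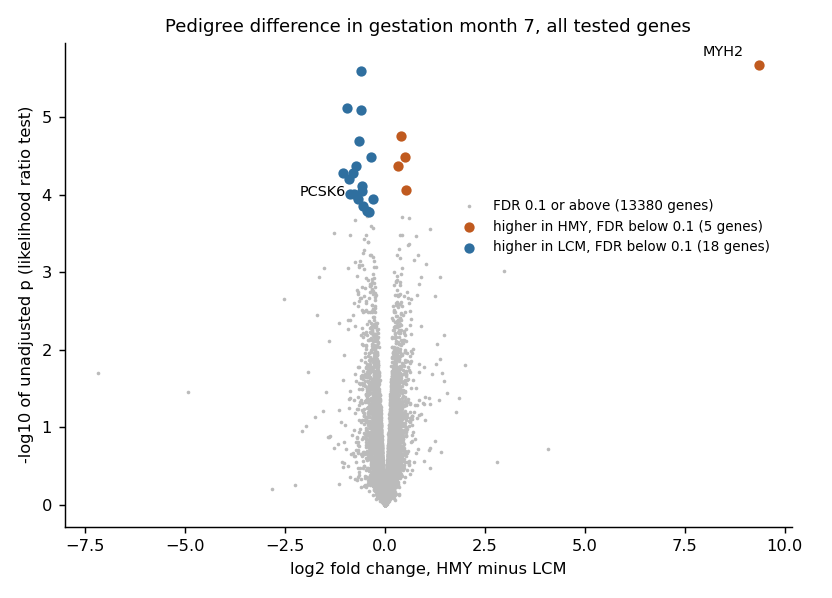
Each point is 1 of 13403 tested genes, with the log2 fold change (HMY minus LCM) on the x axis and -log10 of the unadjusted p of the likelihood ratio test on the y axis. The 18 DEG higher in LCM lie between -1.05 and -0.31, 4 of the 5 DEG higher in HMY lie between 0.32 and 0.52, and MYH2 stands alone at 9.36.

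Only 2 of the 23 DEG had a symbol, since symbols could be assigned to 999 of the 13403 tested genes. PCSK6 and MYH2 are these 2, and of the others the 2 with the lowest FDR in each direction are given by their Ensembl identifiers. Exact permutation p-values of DEG are unadjusted. They come from the same libraries on which the DEG were chosen, so they are no independent test.

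PCSK6 encodes a secreted proprotein convertase, an enzyme that cuts precursors of growth factors and matrix proteins into their active forms. It was at 10.5 to 23.4 CPM (median 16.4) in the 12 HMY heifers and at 16.1 to 46.4 CPM (median 24.0) in the 12 LCM heifers. The groups overlapped, but all 12 HMY heifers lay below the LCM median and 11 of 12 LCM heifers lay above the HMY median. The log2 fold change was -0.57 ± 0.14 (SE), or 1.48-fold higher in LCM (LRT, FDR = 0.0729; exact permutation p = 0.000713 unadjusted). In the 4 diets the difference of mean log2 CPM was -0.34 in HPHE, -0.69 in HPLE, -0.59 in LPHE and -0.47 in LPLE, each from 3 heifers per pedigree. PCSK6 was a DEG in 10 of the 24 fits that left out 1 heifer each, and its highest FDR in these fits was 0.181, without LCM heifer 8 (LRT).

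Of the 17 unnamed DEG higher in LCM, ENSBTAG00000009513 had the lowest FDR. It was at 105 to 288 CPM (median 179) in HMY and 182 to 358 CPM (median 262) in LCM. All LCM heifers lay above the HMY median, and the log2 fold change was -0.61 ± 0.13 (SE; LRT, FDR = 0.0171; exact permutation p = 0.000313). This gene was called in all 24 fits that left out 1 heifer. ENSBTAG00000007312 was at 16.7 to 56.5 CPM (median 38.1) in HMY and 48.3 to 114 CPM (median 72.8) in LCM. Its log2 fold change was -0.95 ± 0.21 (SE; LRT, FDR = 0.0273; exact permutation p = 0.00035), and 8 LCM heifers were above the highest HMY heifer. Without LCM heifer 24 its FDR was 0.105 (LRT).

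Of the 4 unnamed DEG higher in HMY, ENSBTAG00000015186 was at 28.0 to 45.6 CPM (median 32.1) in HMY and 17.5 to 30.5 CPM (median 24.9) in LCM. Its log2 fold change was 0.39 ± 0.09 (SE; LRT, FDR = 0.0459; exact permutation p = 6.25e-05), and all HMY heifers lay above the LCM median. ENSBTAG00000007922 was at 2.56 to 3.76 CPM (median 3.08) in HMY and 1.80 to 2.51 CPM (median 2.27) in LCM. The lowest HMY heifer was above the highest LCM heifer, and this was the single DEG of the 23 whose groups did not overlap. The DEG were chosen on these same values, and overlap was not counted over all tested genes, so this is a description only. The log2 fold change was 0.50 ± 0.12 (SE; LRT, FDR = 0.0553; exact permutation p = 1.25e-05 unadjusted). This is the smallest p that exchanging pedigrees within diets can give, for a gene chosen on these values. Both genes lost the call when certain single heifers were left out, ENSBTAG00000015186 in 3 and ENSBTAG00000007922 in 6 of 24 fits, with FDR up to 0.123 (without LCM heifer 8) and 0.122 (without LCM heifer 21).

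**Figure D2:**
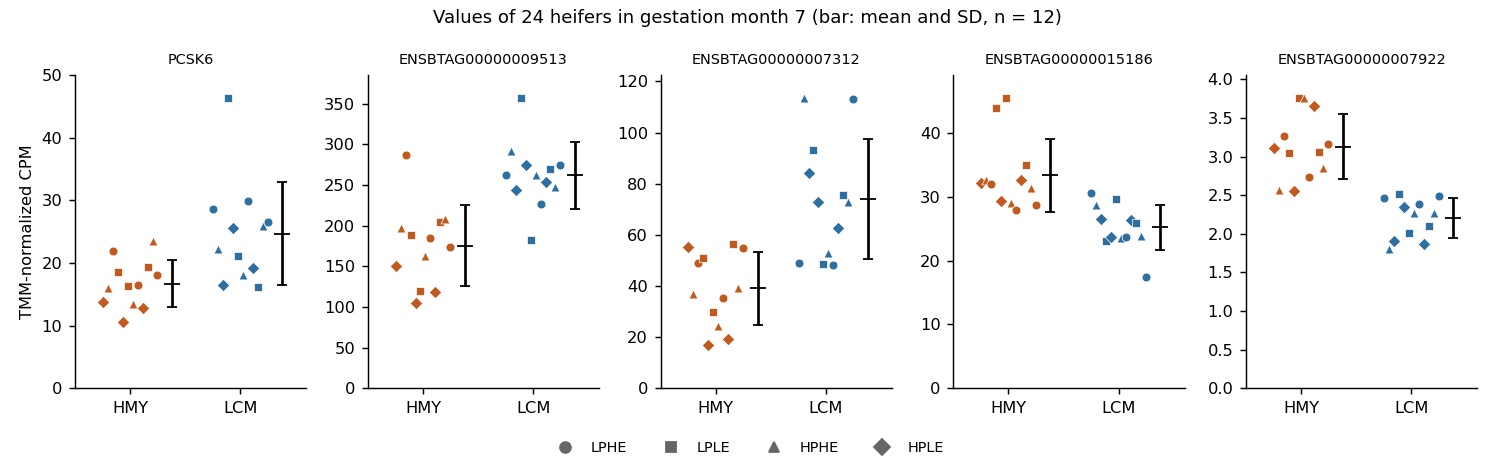
TMM-normalized CPM (y axis, from 0) of PCSK6 and 4 unnamed DEG in each of the 12 HMY and 12 LCM heifers, with symbols for the 4 former diets and a bar for the mean and SD. HMY heifers are lower for PCSK6, ENSBTAG00000009513 and ENSBTAG00000007312 with overlap, higher for ENSBTAG00000015186 with overlap, and higher for ENSBTAG00000007922 without overlap (2.56 to 3.76 against 1.80 to 2.51 CPM). The genes shown were chosen as DEG on these same values.

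Over all 18 DEG higher in LCM the log2 fold changes were -1.05 to -0.31 with a median of -0.63, and over the 4 DEG higher in HMY other than MYH2 they were 0.32 to 0.52. Mean levels of the 23 DEG ran from 2.66 to 380 CPM over the 24 libraries. The pedigree difference had the same direction in all 4 former diets for 21 of the 23, which is no test of its own because the DEG were chosen on the pooled difference.

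The DEG with the largest fold change, MYH2, was high in 3 heifers. MYH2 encodes the fast myosin heavy chain of skeletal muscle, and it passed the filter on low values only through the HMY heifers 19, 17 and 11, at 87.21, 49.72 and 4.602 CPM. The other 21 libraries were at 0 to 0.31 CPM. All HMY libraries together held 6270 reads and all LCM libraries 2 reads, a ratio of 2966 after normalization (95% exact interval 821 to 24490, counting error only), and 99.67% of the HMY reads were in those 3 libraries. The fitted log2 fold change was 9.36. Since the filter kept MYH2 only because HMY libraries were high, its place among the DEG is given as a description and not as a test. With any 1 of these 3 heifers left out, MYH2 no longer passed the filter. Genes of the myosin heavy chain family are alike in sequence, so reads could be shared between them.

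The other skeletal muscle markers were also highest in these 3 libraries. Of 12 markers 7 could be matched and 5 passed the filter, all 5 through HMY libraries alone, so their fitted values are given with no test. ACTA1, the actin of skeletal muscle, was at 6.31 to 118 CPM in heifers 11, 17 and 19 and at most 2.80 CPM in the other 21. CKM, the muscle creatine kinase, was at 2.10 to 32.1 CPM in these 3 and at most 0.511 CPM elsewhere, with a fitted log2 fold change of 2.99. For CKM all 12 HMY heifers lay above the LCM median, and 8 LCM heifers lay below the lowest HMY heifer, at levels under 0.3194 CPM. Other markers did not share this. In the LP diets, which held none of these 3 heifers, mean ACTA1 was lower in HMY, at 0.130 against 0.385 CPM in LPHE and 0.095 against 0.646 CPM in LPLE. Mean MYH7 was also lower in HMY in both LP diets, mean CKM was higher in both, and mean TNNI2 was higher in LPHE and lower in LPLE. MYH7, the slow myosin heavy chain, and TNNI2, a fast troponin, had fitted log2 fold changes of 1.84 and 0.98. The summed level of the 7 markers was 351, 203 and 21.4 CPM in heifers 19, 17 and 11, and between 1.38 and 6.04 CPM in the others. The median sum was 2.58 CPM in HMY and 2.12 CPM in LCM. All 3 heifers had been on HP diets. Leaving them out was a choice made after these values were seen. It left 3 DEG by LRT (1014 genes at an unadjusted p under 0.05), of which 2 were among the 23. The log2 fold changes of the other 22 DEG kept their direction, at 0.71 times their size or more. Keeping direction is no test of its own here, because the remaining libraries were among those on which the DEG were chosen.

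**Figure D3:**
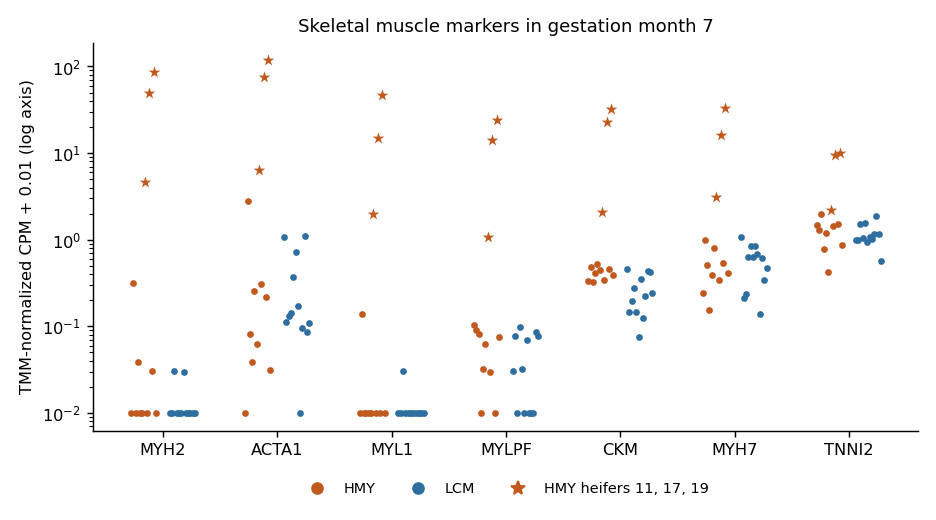
TMM-normalized CPM plus 0.01 (log axis) of 7 skeletal muscle markers in each gestation library, coloured by pedigree, with stars for the HMY heifers 11, 17 and 19. The stars lie above every other library for all 7 genes, and the remaining HMY libraries overlap the LCM libraries.

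Fatty acid and triacylglycerol synthesis fills the lipid store of adipocytes. Of 27 genes of this pathway 16 could be matched and tested, and 0 were DEG by LRT, quasi-likelihood test or DESeq2. By sign, 14 were higher in HMY and 2 in LCM, with a median log2 fold change of 0.33 against 0.00 for all tested genes, of which 51.3% were higher in HMY. The 4 with an unadjusted p under 0.05 by LRT were ACACA, MLXIPL, DGAT2 and FASN. ACACA, the acetyl-CoA carboxylase that makes malonyl-CoA, had the largest log2 fold change, 0.66 ± 0.26 (SE; LRT, FDR = 0.426). It was at 203 to 2343 CPM (median 947) in HMY and 257 to 1756 CPM (median 440) in LCM. DGAT2, which closes triacylglycerol synthesis, had 0.52 ± 0.23 (LRT, FDR = 0.496), and MLXIPL, a carbohydrate-sensing transcription factor of lipogenic genes, had 0.35 ± 0.18 (LRT, FDR = 0.581). ME1, the NADPH-forming malic enzyme, had the lowest, -0.31 ± 0.27 (LRT, FDR = 0.811). The summed level of the 16 genes was 4770 to 42020 CPM (median 17150) in HMY and 6481 to 38790 CPM (median 8380) in LCM, and the ranges overlapped widely.

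Values are also given by former energy level. In a fit of the HE heifers alone 14 of 16 genes were higher in HMY with a median of 0.48, and in a fit of the LE heifers alone 10 of 16 with a median of 0.05 (0 DEG in either by LRT, with 6 and 1 genes at an unadjusted p under 0.05), against 46.6% and 51.8% of all genes. For FASN, HE heifers were at 873 to 6950 CPM (median 2620) in HMY and 714 to 1400 CPM (median 1260) in LCM. LE heifers were at 2600 to 10900 CPM (median 5350) in HMY and 1960 to 10200 CPM (median 4800) in LCM. The log2 fold change of FASN between pedigrees was 1.12 in HE (LRT, FDR = 0.562) and 0.14 in LE (LRT, FDR = 0.998). The pedigree difference was also compared between the energy levels, and no gene of this list was a DEG for it (LRT, FDR = 0.9999 for FASN).

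Cholesterol synthesis shares its acetyl-CoA source with fatty acid synthesis. Of 21 genes 6 could be tested, all 6 higher in HMY by sign, with a median log2 fold change of 0.41 and 0 DEG over all heifers by LRT, quasi-likelihood test or DESeq2 (3 at an unadjusted p under 0.05 by LRT). MVD, the mevalonate diphosphate decarboxylase, had 0.59 ± 0.19 (SE; LRT, FDR = 0.255), LSS, the lanosterol synthase, 0.50 ± 0.22 (LRT, FDR = 0.511), and SC5D, which acts late in the pathway, 0.04 ± 0.12 (LRT, FDR = 0.974). The list's median was 0.68 in HE heifers alone, with 6 of 6 higher in HMY and 5 at an unadjusted p under 0.05 by LRT. It was 0.05 in LE heifers alone, with 5 of 6 higher in HMY and 0 at an unadjusted p under 0.05. Among all genes, 46.6% in HE and 51.8% in LE heifers were higher in HMY. An unadjusted p under 0.05 by LRT was reached by 4.84% of genes in HE and 4.73% in LE heifers. In HE heifers alone MVD was at 18.5 to 34.5 CPM (median 25.6) in HMY and 12 to 17.4 CPM (median 15) in LCM. These groups of 6 did not overlap, which is a description only, since overlap was not counted over all genes. MVD was 1 of 19 DEG (0.144% of 13160 genes) of the HE heifers, with a log2 fold change of 0.74 (LRT, FDR = 0.0091). In LE heifers alone, where 12 genes were DEG (0.092%), MVD was at 24.7 to 114 CPM in HMY and 23.2 to 68.5 CPM in LCM (log2 fold change 0.42, LRT, FDR = 0.998). The difference between the energy levels was not past the threshold for MVD (LRT, FDR = 0.9999).

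Genes of lipid breakdown and of adipocyte hormones had mixed values. Of 5 lipolysis and fatty acid oxidation genes tested, 3 were higher in HMY and 2 in LCM by sign (median log2 fold change 0.10, 0 DEG and 0 at an unadjusted p under 0.05 by LRT). PLIN5, a lipid droplet protein of oxidative cells, had 0.53 ± 0.35 (LRT, FDR = 0.729). PDK4 had -0.52 ± 0.28 (LRT, FDR = 0.613), with -1.33 in HE heifers alone (LRT, FDR = 0.052) and 0.26 in LE heifers alone (LRT, FDR = 0.998). Its level in HE heifers was 98.2 to 424 CPM (median 214) in HMY and 199 to 873 CPM (median 472) in LCM. PDK4 was a DEG in the fit of HE heifers, and the difference between the energy levels was not past the threshold (LRT, FDR = 0.641). Of 5 adipokines and adipocyte regulators tested, all 5 were higher in HMY by sign (median 0.39, 0 DEG, 2 at an unadjusted p under 0.05 by LRT). NNAT, an imprinted gene of an endoplasmic reticulum protein, was at 41.8 to 201 CPM (median 108) in HMY and 18.5 to 125 CPM (median 65.5) in LCM, with 0.84 ± 0.26 (LRT, FDR = 0.225). C19orf80 had 1.42 ± 0.61 (LRT, FDR = 0.493), LEP 0.39 ± 0.23 (LRT, FDR = 0.661) and CIDEC 0.02 ± 0.13 (LRT, FDR = 0.989).

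**Figure D4:**
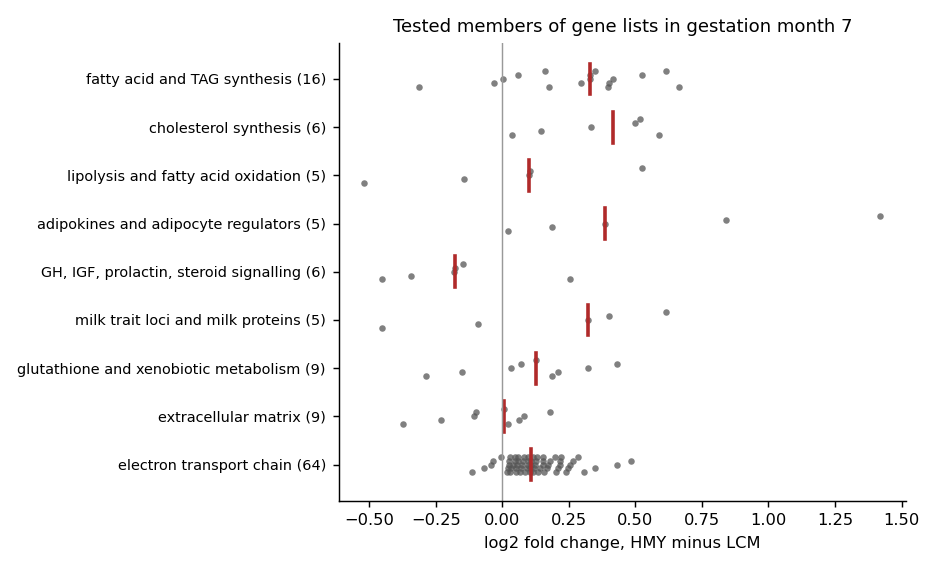
Log2 fold changes (HMY minus LCM, x axis) of the tested members of 9 gene lists, with the number tested in brackets; each grey point is a gene and the red line is the list's median. Medians are 0.33 for fatty acid and triacylglycerol (TAG) synthesis, 0.41 for cholesterol synthesis, 0.11 for the electron transport chain and -0.18 for growth hormone (GH), insulin-like growth factor (IGF), prolactin and steroid signalling, and no gene shown is a DEG.

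The electron transport chain is the machinery of mitochondrial respiration, and its genes were numerous among those with a symbol. Of 64 tested, 59 were higher in HMY and 5 in LCM by sign, with a median log2 fold change of 0.11, 0 DEG by LRT, quasi-likelihood test or DESeq2, and 5 at an unadjusted p under 0.05 by LRT. The 95% interval of these genes reached 0.22 to either side at the median. CYCS, the gene of cytochrome c, had the largest, 0.48 ± 0.18 (SE; LRT, FDR = 0.373), for 1 of its 2 identifiers, and reads may be shared between them, so these values are uncertain. NDUFAF7, an assembly factor of complex I, had the lowest, -0.12 ± 0.13 (LRT, FDR = 0.879). In HE heifers alone 59 of 64 were higher in HMY (median 0.19), and in LE heifers alone 39 of 64 (median 0.02). The share of all tested genes higher in HMY was 51.3% over all heifers, 46.6% in HE and 51.8% in LE heifers alone. Summed levels were 17920 to 42350 CPM (median 21940) in HMY and 16100 to 35830 CPM (median 20830) in LCM, with wide overlap. Symbols came from the study's own tables, so such genes are no even draw from the genome.

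The study's own metabolic lists hold genes it called between LPHE and LPLE heifers at 12 months, and not whole pathways. In these lists 23 of 30 fatty acid genes, 18 of 28 amino acid genes, 12 of 14 carbohydrate genes and 13 of 24 antioxidant genes were higher in HMY by sign. Median log2 fold changes were 0.08, 0.03, 0.08 and 0.04, with 0 DEG by LRT. Among all tested genes 51.3% were higher in HMY (median 0.00). The shares were 46.6% in HE heifers alone, 51.8% in LE heifers alone and 48.7% at 12 months. In HE heifers alone these lists had 21 of 30 (median 0.17), 18 of 27 (median 0.09), 13 of 14 (median 0.21) and 14 of 24 (median 0.04) higher in HMY. There 8, 0, 6 and 3 genes had an unadjusted p under 0.05, and the lowest FDR was 0.0091, in the fatty acid list (LRT). In LE heifers alone these lists had 16 of 30 (median 0.02), 8 of 28 (median -0.05), 7 of 14 (median -0.01) and 11 of 23 (median -0.02) higher in HMY, and at 12 months 12 of 30 (median -0.07), 9 of 28 (median -0.06), 6 of 14 (median -0.04) and 12 of 24 (median -0.03). The extreme members were FASN at 0.62 ± 0.31 and LPCAT4 at -0.15 ± 0.12 for fatty acids, PIPOX at 0.44 ± 0.36 and CDO1 at -0.94 ± 0.28 for amino acids, TKT, the transketolase, at 0.29 ± 0.19 and MCEE at -0.09 ± 0.13 for carbohydrates, and ACTA1 at 2.81, a muscle marker that passed the filter through HMY libraries alone, and PRKCZ at -0.44 ± 0.39 for antioxidant genes. CDO1 makes cysteine sulphinate on the way to taurine. It was at 4.78 to 28.0 CPM (median 9.83) in HMY and 8.24 to 33.9 CPM (median 17.4) in LCM (LRT, FDR = 0.189), and it was the 1 gene of these lists that DESeq2 called. Of 9 glutathione and xenobiotic genes 7 were higher in HMY by sign (median 0.13, 0 DEG). In HE heifers alone 7 of 9 were higher in HMY (median 0.25). The count was 3 of 9 in LE heifers alone (median -0.07) and 4 of 9 at 12 months (median -0.07). Over all heifers these genes lay between GSTT3 at 0.43 ± 0.44 and GSTM1 at -0.29 ± 0.17, both glutathione transferases. Of 9 extracellular matrix genes 5 were higher in HMY by sign (median 0.01, 0 DEG). COL6A3, a collagen VI chain, had 0.18 ± 0.20, and DCN, the matrix proteoglycan decorin, had -0.37 ± 0.15 (LRT, FDR = 0.451), at 2453 to 5264 CPM in HMY and 3274 to 7213 CPM in LCM.

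Hormone signalling and milk genes were few among those matched. Of 6 genes of growth hormone, IGF, prolactin and steroid signalling, 1 was higher in HMY and 5 in LCM by sign (median log2 fold change -0.18, 0 DEG, 0 at an unadjusted p under 0.05 by LRT). IGF2, a growth factor, had 0.26 ± 0.14 (LRT, FDR = 0.6298), and PRLR, the prolactin receptor, had -0.45 ± 0.76 (LRT, FDR = 0.934). The sign for PRLR turned without LCM heifer 13, in which PRLR was highest at 22.7 CPM against a median of 2.46 CPM in LCM. Of 5 milk trait genes 3 were higher in HMY by sign (median 0.32, 0 DEG), from FASN at 0.62 to PRLR at -0.45.

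Of the defence genes few could be matched. The lists of major histocompatibility genes of class I and class II, 22 symbols each, had no match. Of 46 pathogen sensing and cytokine genes 3 could be tested, of 33 antimicrobial and acute phase genes 3, of 26 complement genes 2 and of 41 interferon response genes 3, with 0 DEG by LRT, quasi-likelihood test or DESeq2 in each. LBP, the lipopolysaccharide binding protein, had a log2 fold change of 0.41 ± 0.20 (LRT, FDR = 0.543), CXCL10, an interferon-induced chemokine, 0.22 ± 0.49 (LRT, FDR = 0.958), and SERPING1, the inhibitor of complement C1, -0.20 ± 0.15 (LRT, FDR = 0.7745). AGP, an acute phase protein, had -0.30 ± 0.36 (LRT, FDR = 0.892), and MX2, an interferon-induced antiviral protein, 0.08 ± 0.40 (LRT, FDR = 0.986). Of 20 clock genes 3 were tested, with a median of 0.09 and 0 DEG.

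Markers of other cells of the tissue were summed per library. The 4 matched fibroblast markers summed to 14820 to 56680 CPM (median 34610) in HMY and 14960 to 73040 CPM (median 34660) in LCM. The 3 smooth muscle markers summed to 85.2 to 1230 CPM in HMY and 116 to 1537 CPM in LCM, and the 4 nerve markers to 127 to 523 CPM in HMY and 130 to 419 CPM in LCM. The keratinocyte marker DSP was at 1.03 to 77.6 CPM in HMY and 0.822 to 17.2 CPM in LCM, and KRT19, of secretory epithelium, at 1.996 to 11.6 CPM in HMY and 1.33 to 29.9 CPM in LCM. None of these markers was a DEG by LRT, quasi-likelihood test or DESeq2, and 1 of them, a fibroblast marker, had an unadjusted p under 0.05 by LRT. Markers of endothelium, macrophages, T, NK, B and mast cells, neutrophils and erythrocytes had no match, and their part in the pedigree difference was not tested.

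The 10 genes with a symbol and the lowest p short of the threshold were chosen after their values were seen. ISLR, a secreted leucine-rich repeat protein of stromal cells, was at 113 to 242 CPM (median 156) in HMY and 147 to 342 CPM (median 217) in LCM, with a log2 fold change of -0.46 ± 0.12 (LRT, FDR = 0.103). PIEZO1, a mechanically gated ion channel, was at 170 to 357 CPM (median 232) in HMY and 116 to 223 CPM (median 180) in LCM, with 0.43 ± 0.12 (LRT, FDR = 0.103). For PIEZO1 all 12 LCM heifers lay below the HMY median and 11 of 12 HMY heifers above the LCM median, and for ISLR 11 of 12 LCM heifers lay above the HMY median. IL17D, a cytokine, had -0.52 ± 0.15 (LRT, FDR = 0.1598), AGTR1, the angiotensin II receptor, -0.55 ± 0.16 (LRT, FDR = 0.17), TMEM255A -0.65 ± 0.19 (LRT, FDR = 0.189), ZDHHC2, a palmitoyltransferase, -0.53 ± 0.16 (LRT, FDR = 0.189) and NECAB3 -0.42 ± 0.13 (LRT, FDR = 0.215). CDO1, CKM and NNAT, given above, complete the 10, and CKM is listed with the limit stated there. Of all 999 tested genes with a symbol, 95 (9.51%) had an unadjusted p under 0.05, against 8.55% of all genes.

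Whether the pedigree difference depended on the energy fed before gestation was tested as an interaction. Of 13403 genes, 1 (0.00746%) was a DEG by LRT and 0 by the quasi-likelihood test (356 genes at an unadjusted p under 0.05). For ENSBTAG00000018833, HE heifers were at 0.893 to 5.73 CPM (median 2) in HMY and 0.128 to 1.22 CPM (median 0.478) in LCM, and LE heifers at 0.466 to 1.7 CPM (median 0.84) in HMY and 0.0865 to 4.47 CPM (median 2) in LCM. The pedigree difference in HE minus that in LE was 3.58 ± 0.78 (log2, SE; LRT, FDR = 0.0577). The mean was higher in HMY in both HE diets and higher in LCM in both LE diets. The highest LCM value was that of heifer 7, one of the libraries with the most reads without a unique alignment. In 16 of the 24 fits that left out 1 heifer each, the one without heifer 7 included, 0 genes were DEG for the interaction (LRT).

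The same heifers at 12 months were sampled under the experimental diets. There 1 of 13339 genes (0.0075%) was a DEG by LRT and 0 by the quasi-likelihood test (1501 genes at an unadjusted p under 0.05). This gene, ENSBTAG00000013412, had a log2 fold change of -2.31 ± 0.50 at 12 months (LRT, FDR = 0.0573) and -1.67 ± 0.51 in gestation (LRT, FDR = 0.211). In gestation it was at 1.09 to 10.4 CPM (median 2.26) in HMY and 1.04 to 40.5 CPM (median 4.88) in LCM.

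Of the 23 DEG of gestation, 21 had the same direction at 12 months. These were 17 of the 18 higher in LCM and 4 of the 5 higher in HMY. MYH2 is among the 4, and it passed the filter in gestation through HMY libraries alone, so its direction is a description only. For comparison, 61.48% of the other 13112 genes had the same direction at both times, and the heifers were the same, so the times are not independent. Of the 23 genes, 10 had an unadjusted p under 0.05 at 12 months, and the lowest FDR among the 23 was 0.241 there (LRT). Of all 13339 genes tested at 12 months, 1465 (10.98%) had an unadjusted p under 0.05 by LRT. These leaned to LCM, with 454 higher in HMY and 1011 higher in LCM. The median log2 fold change of the 18 genes higher in LCM was -0.63 in gestation and -0.56 at 12 months. LCM heifer 8 had the highest LCM value at 12 months for 10 of the 18. As a difference of mean log2 CPM, the median over the 18 was -0.42 at 12 months with heifer 8 and -0.35 without it, and by this measure 15 of the 18 were higher in LCM with it and 14 without it. PCSK6 had -0.56 ± 0.33 at 12 months (LRT, FDR = 0.521), with HMY at 3.82 to 12.4 CPM (median 7.00) and LCM at 2.80 to 70.6 CPM (median 8.22). ENSBTAG00000007922 had -0.04 ± 0.18 at 12 months (LRT, FDR = 0.951), and ENSBTAG00000009513 had -0.03 ± 0.20 (LRT, FDR = 0.963). At 12 months the fatty acid and triacylglycerol genes were higher in HMY for 7 of 16 (median -0.04), the cholesterol genes for 5 of 6 (median 0.14) and the electron transport chain genes for 41 of 64 (median 0.05), against 48.7% of all genes (median -0.01). All 6 hormone signalling genes were higher in HMY by sign at 12 months (median 0.35, 0 DEG, 2 at an unadjusted p under 0.05 by LRT).

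**Figure D5:**
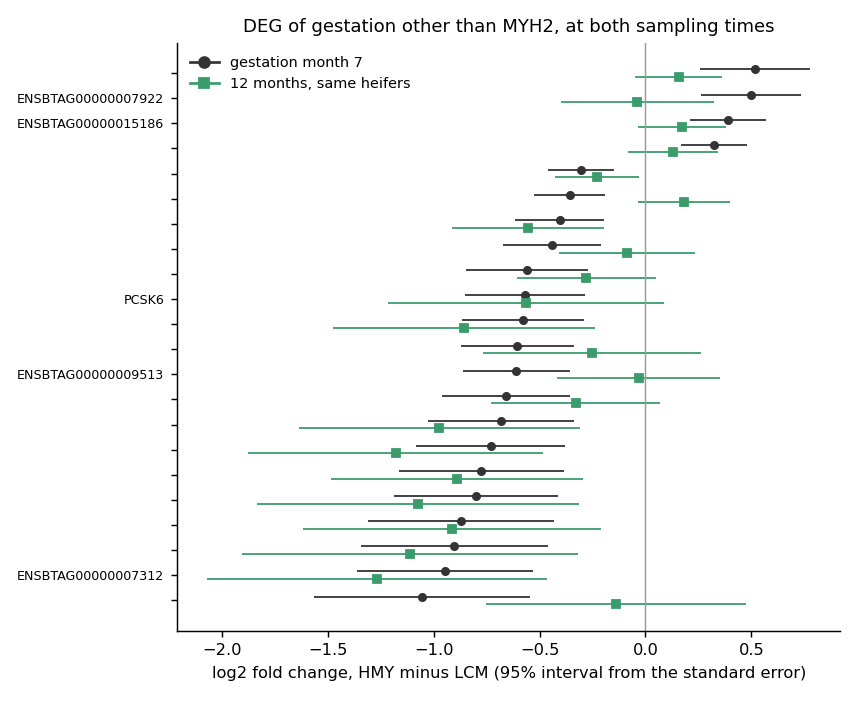
Log2 fold changes (HMY minus LCM, x axis) of the 22 DEG of gestation other than MYH2, in gestation (dots) and at 12 months in the same heifers (squares), with 95% intervals from the standard errors; only genes described in the text are labelled. The gestation values were used to choose the genes, and the 12-month values lie on the same side of 0 for all but 2 of the genes shown.

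A change of the pedigree difference between the times was tested within heifers. Of 13718 genes, 6 (0.0437%) were DEG by LRT and 0 by the quasi-likelihood test (1166 genes at an unadjusted p under 0.05), and none of the 23 gestation DEG was among the 6 (lowest FDR 0.131, LRT). PALM, which encodes a protein anchored at the inner face of the plasma membrane, was higher in LCM at the median in gestation and higher in HMY at 12 months. In gestation it was at 68.8 to 133 CPM (median 89.6) in HMY and 73.6 to 149 CPM (median 115) in LCM, and at 12 months at 42.1 to 115 CPM (median 71.6) in HMY and 31.0 to 88.1 CPM (median 55.4) in LCM. The pedigree difference changed by -0.61 ± 0.13 (log2, SE; LRT, FDR = 0.0331). The change had the opposite sign for 2 unnamed genes, ENSBTAG00000017069 by 0.97 ± 0.23 (LRT, FDR = 0.0796) and ENSBTAG00000007071 by 0.54 ± 0.13 (LRT, FDR = 0.0983). ENSBTAG00000017069 was at 9.87 to 56.8 CPM (median 36.4) in HMY and 10.7 to 34.6 CPM (median 19.5) in LCM in gestation, and its medians at 12 months were 33.4 CPM in HMY and 35.9 CPM in LCM. ENSBTAG00000043951 changed by -0.62 ± 0.14 (LRT, FDR = 0.0566), with medians in gestation of 23.9 CPM in HMY and 31.3 CPM in LCM. ENSBTAG00000046980 had the lowest FDR (-7.04 ± 0.87; LRT, FDR = 5.49e-12), but 15 of 24 heifers had no read of it at either time. Of the 9 heifers with reads, 5 had between 80 and 187 reads at both times. HMY heifer 12 had 241 reads at 12 months and 0 in gestation. LCM heifer 13 had 76 reads in gestation and 0 at 12 months. Whether both libraries of these heifers came from the animal named in the label was not tested.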

How the data were processed

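RNA of subcutaneous fat was sequenced from paired-end libraries that keep no strand, so overlapping genes on opposite strands cannot be told apart. The deposited values are raw read counts per Ensembl gene, which the authors made from trimmed reads (cutadapt 1.3) aligned to the bovine build UMD3.1 (TopHat2 2.0.12) and counted with HTSeq, as the submitters' processing notes name them. Summary entries for unassigned reads, 38.85 to 60.96% of all counts in the gestation libraries, were left out.

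Genes that reached 2 CPM in 3 or more libraries were fitted in edgeR 4.0.16 (R 4.3.3) with TMM factors, tagwise dispersions, diet and pedigree, as in the study, and tested by likelihood ratio. DEG are genes with an FDR under 0.1, and SE is the log2 fold change divided by the root of the likelihood ratio. The interaction with energy used the gestation libraries, and that with time used all 48 with heifer as block, since the replicate number in the labels is the heifer and the same heifers were sampled at both times. Exact permutation tests, two-sided, exchanged pedigrees within diets (160000 assignments) on log2(CPM + 0.5). Alternatives included the quasi-likelihood test, DESeq2 1.42.0, other scaling and filters, and leaving out each heifer. The fits were tested on simulated data, in which the likelihood ratio test and DESeq2 made more false calls than the nominal rate and the quasi-likelihood test did not.

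Symbols came from gene identifiers paired with names in the study's supplementary tables and, for 5 genes, copied by hand from tables in its text, 999 of the tested genes in all. The supplementary tables list the genes that the study called between energy levels at 12 months. No identifier matched the RefSeq table. The 15 gene lists and the markers of 14 cell types were chosen with earlier results of these data known, as was the comparison itself. The study's lists, the electron transport chain list and the 3 sets of heifers left out were added after first results. The genes to be named were up to 12 DEG in each direction, list members that were DEG, the highest and lowest member of each list with at least 5 tested, the 5 leading DEG of each interaction and adipocyte markers. Since most DEG had no symbol, at most 2 identifiers per direction are printed for a comparison, beside those whose values had to be given. Intervals on read ratios cover counting error only. Libraries of the same heifer at both times were compared for duplication, and all 24 pairs differed beyond sampling noise. Such a comparison finds copies only, and whether both libraries of a pair came from the same animal was not tested.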

Additional observations from a re-analysis of the deposited data

Results flagged for a closer look

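In month 7 of gestation 1 gene had a pedigree difference that differed between former energy levels by the likelihood ratio test of edgeR. For ENSBTAG00000018833 the log2 difference in HE minus that in LE was 3.58 (FDR = 0.0577).

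The pedigree difference in gestation minus that at 12 months passed the same test, within heifers, for 6 genes. It was -7.04 for ENSBTAG00000046980 (FDR = 5.49e-12), -0.61 for PALM (FDR = 0.0331), -0.62 for ENSBTAG00000043951 (FDR = 0.0566), -2.78 for ENSBTAG00000018432 (FDR = 0.0591), 0.97 for ENSBTAG00000017069 (FDR = 0.0796) and 0.54 for ENSBTAG00000007071 (FDR = 0.0983). ENSBTAG00000018432 was at 0 to 10.4 CPM (median 0.303) in HMY and 0.164 to 10.4 CPM (median 0.890) in LCM in gestation. The quasi-likelihood test called 0 genes for either interaction (356 and 1166 genes at an unadjusted p under 0.05). Groups of 12 heifers were too large for the single-sample outlier test used for small groups.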

How the results depend on the processing

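In gestation the likelihood ratio test of edgeR gave 23 DEG between the pedigrees, 6 at an FDR under 0.05, 0 by the quasi-likelihood test (1259 genes at an unadjusted p under 0.05), 67 by DESeq2 and 0 with all 48 samples in one fit (918 genes at an unadjusted p under 0.05). It gave 29 with library size alone, 17 without diet, 19 in HE heifers alone and 12 in LE heifers alone, of which 2 and 4 were among the 23. Leaving out heifers 11, 17 and 19 gave 3, heifers 2 and 13 gave 23 and heifers 7 and 23 gave 26. Every DEG fitted in these settings kept its direction, which is no test of its own because the DEG were chosen on the same libraries. The log2 fold change fell to as little as 0.36 times the main value in HE heifers alone and 0.45 times in LE heifers alone. Leaving out 1 heifer gave 5 to 73 DEG. The count moved by over 1.5 times without HMY heifers 2 (36), 18 (73), 1 (35), 11 (13), 9 (12), 4 (9), 19 (9), 17 (8), 3 (7) and 10 (5), and without LCM heifers 5 (57), 14 (47), 7 (37), 22 (14), 21 (8), 8 (6) and 24 (5).

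No replicate block was possible within gestation because each heifer gives 1 library there. For the change between sampling times the block is the heifer, and without it 0 of the 6 calls were made (622 genes at an unadjusted p under 0.05). That change gave 2 DEG at an FDR under 0.05, 0 by the quasi-likelihood test (1166 genes) and 2 with at least 10 counts in every sample. Leaving out 1 heifer gave 1 (heifer 22) to 69 (heifer 19), with 39 without heifer 2, 23 without heifer 15, 12 without heifer 23, 10 without heifer 1 or 7, 3 without heifer 3, 4, 8, 9, 10, 11 or 18 and 2 without heifer 21. The interaction with energy gave 0 DEG at an FDR under 0.05, 0 by the quasi-likelihood test (356 genes), 0 with at least 10 counts in every sample (336 genes), and 0 to 3 without 1 heifer: 0 for 16 of the 24 heifers, 2 without heifer 18 or 21 and 3 without heifer 14. At 12 months it was 0 at an FDR under 0.05, 0 by the quasi-likelihood test (1501 genes), 2 with at least 10 counts in every sample, and 0 to 86 without 1 heifer, with 86 without heifer 17, 56 without heifer 7, 20 without heifer 14, 16 without heifer 13, 8 without heifer 1 or 20, 5 without heifer 15, 3 without heifer 6 or 19, 2 without heifer 16 or 23 and 0 without heifer 3, 4, 8, 9, 10, 12, 18, 21, 22 or 24.

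The difference on the second principal component was -4.41 with the 500 most variable genes (exact permutation p = 0.134). Some log2 fold changes that were not DEG turned sign. PDK4 had 0.26 in LE heifers, GSTT3 -0.16 in LE heifers and -0.056 without heifers 2 and 13, CIDEC -0.00578 with library size alone and -0.20 in HE heifers, and PRLR 0.41 without heifers 2 and 13. Without 1 heifer CIDEC ran from -0.048 to 0.081, PRLR from -0.74 to 0.60, SC5D from -0.028 to 0.077 and ACTA1 from -0.47 to 4.30. The cause was not tested. Single-gene values over all settings, pooled with the DEG counts of the marker and study lists, stayed the same in direction and side of the threshold in 1845 cases. In 423 the call was lost, in 39 it was gained and in 15 the sign turned. Many of these genes were not DEG in the main fit, so the totals do not measure how stable the DEG were.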
